A study of Rattus norvegicus with 9 samples.

Results

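The genes described here are NRF2 target antioxidant genes: Nqo1, Gclc, Gclm, Txnrd1, Srxn1, Gsr, Osgin1 and Slc7a11. They were chosen by name, as textbook targets of the transcription factor NRF2. Of these 8 genes, 7 were found among the 18420 genes of the table. Srxn1, which encodes sulfiredoxin, was not matched, so its level is not analysed here. Hmox1, another NRF2 target, was kept apart because haem controls it as well. The source of the messenger RNA libraries was cortex tissue of ZDF fa/fa rat kidneys, from an obese, diabetic line with a defective leptin receptor. All 9 libraries carry the label Medical Bypass, so they form 1 group of 9 replicates, and all share strain, diabetic status and treatment. The labels give neither the agents of the treatment nor the age or sex, and do not say whether replicates were separate animals, so a p-value covers only how far these libraries differ, and that spread may be technical. With no untreated group analysed here, the question that could be asked was how the NRF2 targets differed from replicate to replicate and which of them moved together.

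NRF2, encoded by Nfe2l2, is held in the cytoplasm and sent to degradation by KEAP1 until electrophiles or oxidants modify KEAP1. It then enters the nucleus, pairs with a small MAF protein and binds antioxidant response elements in front of genes that make glutathione, supply reducing power and detoxify quinones. In the kidney, tubule cells carry much of this activity, because they are rich in mitochondria and take up filtered and circulating toxins.

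The core of the antioxidant response element, TGACNNNGC, was searched on both strands in RefSeq promoter windows of build GRCr8, each reaching from 250 bases before to 50 bases after a gene's start. Such windows were found for 7 of the 8 named genes (8 windows, since Txnrd1 has a pair of starts), and Gsr had no entry. The motif lay in 2 of the 8 windows, those of Gclm and of 1 start of Txnrd1, and in 12.1% of the 33469 windows of all genes. Only this spelling was searched, so elements spelled otherwise were not counted. The Srxn1 window, for example, holds TGAGTCAGC, which the pattern leaves out. Shown are the windows of Gclc and Gclm, the pair that moved together in these data, and of Txnrd1, which did not follow them. They lie at chr8:87510226-87510525 (plus strand), chr2:213031885-213032184 (plus strand) and chr7:22755855-22756154 (minus strand). Capitals mark the motif, which reads GCNNNGTCA here because both matches are on the opposite strand.
Gclc: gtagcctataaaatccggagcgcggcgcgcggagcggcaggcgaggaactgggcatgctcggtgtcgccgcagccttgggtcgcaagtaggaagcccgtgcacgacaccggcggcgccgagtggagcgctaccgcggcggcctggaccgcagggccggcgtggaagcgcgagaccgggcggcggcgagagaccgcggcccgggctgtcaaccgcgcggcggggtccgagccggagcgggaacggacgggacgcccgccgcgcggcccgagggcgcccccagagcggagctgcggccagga
Gclm: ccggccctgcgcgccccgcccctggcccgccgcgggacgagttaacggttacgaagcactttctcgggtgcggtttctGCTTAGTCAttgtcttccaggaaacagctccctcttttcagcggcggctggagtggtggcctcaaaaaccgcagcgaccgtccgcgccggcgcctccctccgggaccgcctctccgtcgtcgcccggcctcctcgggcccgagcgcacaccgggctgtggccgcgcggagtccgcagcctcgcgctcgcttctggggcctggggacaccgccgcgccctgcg
Txnrd1: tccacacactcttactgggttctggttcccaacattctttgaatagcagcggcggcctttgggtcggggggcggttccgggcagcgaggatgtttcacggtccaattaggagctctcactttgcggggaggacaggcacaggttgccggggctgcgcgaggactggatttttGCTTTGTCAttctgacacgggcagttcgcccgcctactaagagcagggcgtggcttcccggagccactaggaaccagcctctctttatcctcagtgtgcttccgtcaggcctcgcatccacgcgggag
The match began 172 bases before the start of Gclm and 78 bases before that start of Txnrd1. The Gclc window holds no match, which says only that these letters are not in these 300 bases. A match is a description and not a shown binding site, and the deposited reads were aligned to another build, Rnor_5.0.

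Levels below are reads per gene divided by the library's size factor, not corrected for length, so they are compared between replicates and not between genes. Reads in genes ranged from 10757440 to 43071223 per library, and 1 read was worth 0.544 to 1.99 units. Reads aligned to more than 1 place made 14.9% to 22.1% of the counted reads. That share was related to 4774 of 13647 genes tested (35%, limma, Benjamini-Hochberg adjusted p under 0.05), and without replicate 5, the library with the highest share, to 1740 genes. None of the 6 NRF2 targets tested was among the 4774, with the lowest adjusted p at 0.0563 for Nqo1 and 0.0584 for Osgin1. Without replicate 2, Osgin1 passed (slope 0.54 ± 0.11 per SD of the share, adjusted p = 0.00750 by limma). Markers of the cortex were present in every library: of 71 marker genes named for nephron segments, podocytes, macrophages and injured tubule, 61 were in the table, and each had reads in every library.

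Of the 6 targets tested, Gclc and Gclm had the widest ranges between replicates. They encode glutamate-cysteine ligase, the rate-limiting enzyme of glutathione synthesis, Gclc its catalytic and Gclm its modifier subunit. Gclc averaged 19736 ± 13080 (SD, n = 9), with its lowest level of 5844 in replicate 8, a median of 12242 and its highest level of 41459.7 in replicate 2. Replicates 2, 4 and 1, at 41459.7, 38557 and 27594, stood above the other 6, which lay between 5844 and 18883. Gclm averaged 9146 ± 3749, with 4443 in replicate 8, a median of 7801 and 16325 in replicate 2. Replicates 2, 4 and 1 were again the highest, at 16325, 12853 and 11758. The range was 7.09-fold for Gclc and 3.67-fold for Gclm, against counting errors of 0.847% and 1.10% of the level. Between 6150 and 58509 reads stood behind each Gclc value.

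**Figure D1:**
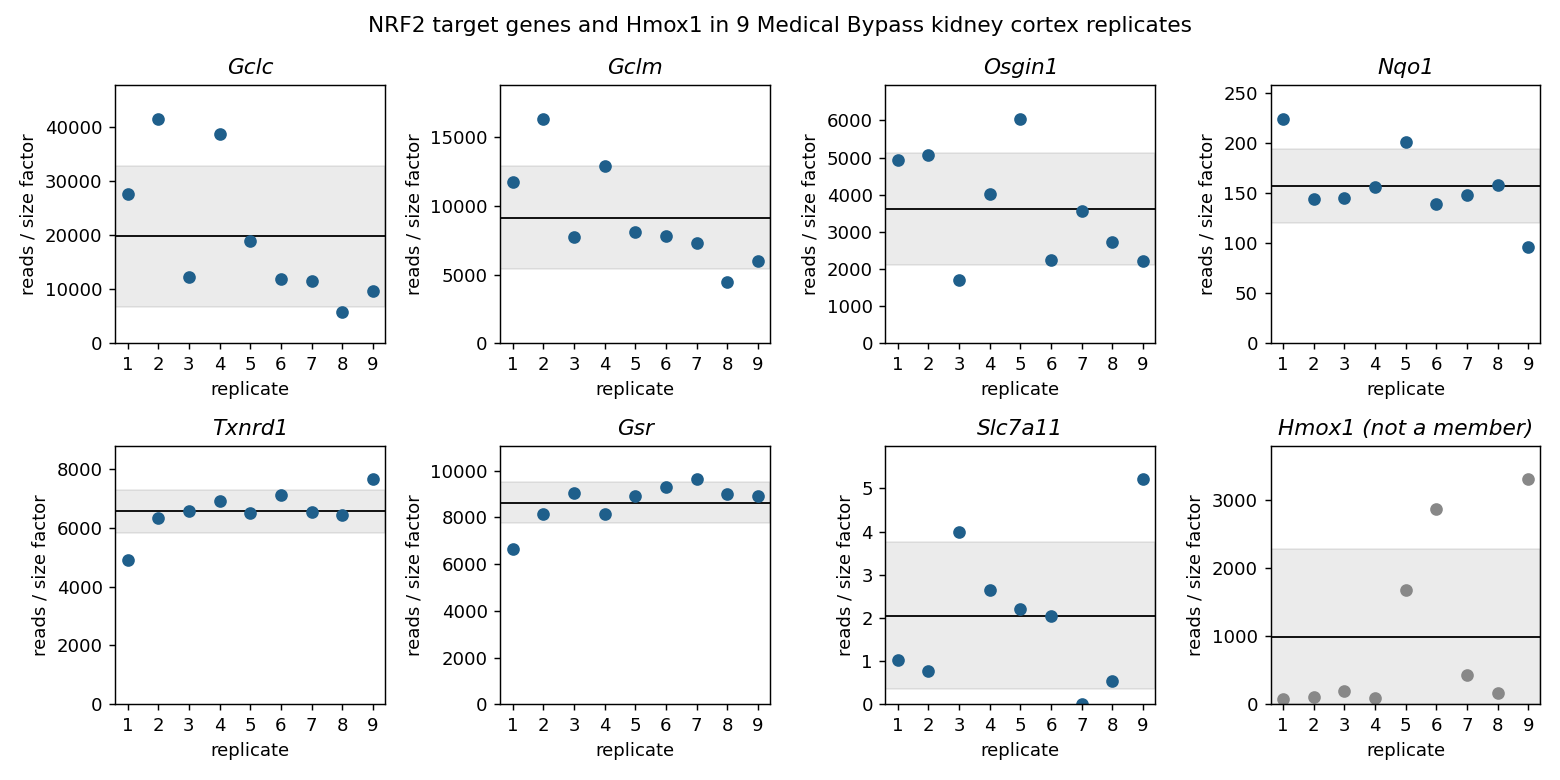
Level of each gene (reads divided by size factor, linear axis from 0) in the 9 replicates of the Medical Bypass group; points are single libraries, the line is the mean and the grey band 1 SD to either side. Gclc and Gclm are highest in replicates 2, 4 and 1, Txnrd1 and Gsr are lowest in replicate 1, and Slc7a11 never exceeds 5.21.

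Osgin1, an oxidative-stress-induced growth inhibitor, averaged 3618 ± 1505. It ran from 1718 in replicate 3 through a median of 3575 to 6047 in replicate 5, a 3.52-fold range, with replicates 1, 2 and 4 also above the mean at 4013 to 5074. Nqo1, the quinone reductase most often read as a marker of NRF2 activity, averaged 157 ± 36.8 from only 73 to 291 reads per library. Its lowest level was 96.3 in replicate 9, its median 148 and its highest 224.2 in replicate 1, a 2.33-fold range with a counting error of 8.18%. Replicate 5 followed at 200.6, and the remaining 6 replicates lay between 139 and 158.

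The disulfide reductases were steadier. Txnrd1, cytosolic thioredoxin reductase, averaged 6562 ± 743, and Gsr, which returns oxidised glutathione to its reduced form, 8634 ± 890. Txnrd1 ran from 4921 in replicate 1 through 6557 to 7653 in replicate 9, a 1.55-fold range. Gsr ran from 6645 in replicate 1 through 8907 to 9628 in replicate 7, a 1.45-fold range. Both were lowest in replicate 1, where Nqo1 was highest.

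Slc7a11, the cystine importer xCT that feeds glutathione synthesis, was hardly detected. It had 19 reads in all 9 libraries together, from 0 in replicate 7 to 4 in replicates 4 and 9, for a highest level of 5.21. In 7 of the 9 libraries it was at or under 3 reads, so differences between replicates were not detectable at this depth, and it was left out of the tests.

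The variance of each gene over the 9 libraries was set against limma's trend of variance on level by an F test. None of the 6 tested targets passed, and neither did any of the 13647 genes (0%), with 573 (4.20%) at an unadjusted p under 0.05. Even Hmox1, with the highest ratio of variance to trend of all (55.1, F test unadjusted p = 0.000392), had an adjusted p of 0.957. The test takes its trend, and the scatter around it, from the variances of these same genes, so it had little power to call any. Not passing does not show a gene to be steady. The ratio of variance to trend was 12.1 for Gclc (F test unadjusted p = 0.0101, adjusted p = 0.957), larger than in 99.6% of genes tested. It was 6.14 for Osgin1 (97.0%) and 4.69 for Gclm (94.5%). Nqo1 at 0.943 lay below the middle (42.4%), and Txnrd1 and Gsr at 0.441 and 0.359 were among the steadier genes (15.7% and 10.8%). Replicate 1 carried much of the spread of these last 2, whose ratios were 0.143 and 0.123 without it, and the ratio of Nqo1 was 0.520 without replicate 9.

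Gclc and Gclm rose and fell together. Gclm changed by 0.56 ± 0.069 (SE) on the log2 scale for each SD of Gclc, with an adjusted p of 0.00319 over all genes by limma. Pearson's r was 0.976 (two-sided exact permutation p = 5.51e-06) and Spearman's rho 0.983 (exact permutation p = 4.96e-05), and r was 0.961 after the 2 libraries with Gclc farthest from its median were left out. Gclm was 1 of 60 genes that followed Gclc, out of 13646 tested (0.44%), all of them in the same direction. No other NRF2 target was among them: Osgin1 had a slope of 0.42 ± 0.15 (adjusted p = 0.980), Nqo1 0.13 ± 0.12, Txnrd1 -0.06 ± 0.076 and Gsr -0.10 ± 0.069 (each adjusted p = 1.00 by limma). Without replicate 2 the slope of Gclm was 0.48 with an adjusted p of 0.0520, and 19 genes followed Gclc. Without replicate 4, 31 genes did. Replicates 4 to 9 alone gave a slope of 0.49 (adjusted p = 0.322) and 4 genes. That subset leaves out replicates 1 and 2, which were among the highest for Gclc, and the titles give no ground for the split.

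The catalytic subunit moved further than the modifier. The ratio of Gclc to Gclm within a library, which no scaling of libraries can change, averaged 1.98 ± 0.583 (SD, n = 9). It was 3.00 in replicate 4, 2.54 in replicate 2, 2.35 in replicate 1 and 2.33 in replicate 5, and 1.32 to 1.62 in the other 5 replicates, with the lowest in replicate 8. The 4 replicates with the highest ratios were those with the most Gclc. Gclc is the numerator and had the wider range, so this follows from the ranges and is no separate result.

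Beyond the ligase pair, some genes listed here as markers of the late proximal tubule were among the followers. Among the 8 markers listed for proximal tubule segment S3, 2 followed Gclc, against 0.44% of all genes tested. They were Slc7a13, a cystine and acidic amino acid transporter of S3, and Kap, the kidney androgen-regulated protein. The list was chosen with earlier results of these data known, so this count is no separate result. Slc7a13 had a slope of 1.36 ± 0.12 (adjusted p = 0.000602) and Kap 1.02 ± 0.13 (adjusted p = 0.00393, limma over all genes). The other 6 did not pass, and their r with Gclc ran from -0.408 for Slc34a3, a phosphate transporter, to 0.921 for Slc3a1, the heavy chain of the cystine transporter, with Slc5a8 (-0.336) and Slc5a1 (-0.00448) also below 0. Slc34a3 was lowest in replicate 1 and highest in replicate 8, as were Slc5a2, Slc22a6 and Slc22a8 of the S1 and S2 list. The S3 list may therefore mix segments. Slc7a13 ran from 690 in replicate 8 to 11449 in replicate 4 and Kap from 6713 in replicate 9 to 41900.6 in replicate 4. Both were highest in replicates 4, 2, 1 and 5, in that order, the same 4 replicates that led for Gclc. None of the 11 proximal tubule S1 and S2 markers followed Gclc, which is near the background of 0.44% over all genes. All 11 had negative slopes that did not pass, with a median of -0.18 against -0.0041 over all genes. These slopes share the same libraries, so like signs are not separate results. The same 2 S3 markers followed Gclm, as did 0.315% of all genes tested. Their slopes were 1.29 ± 0.17 for Slc7a13 (adjusted p = 0.0103) and 0.96 ± 0.17 for Kap (adjusted p = 0.0383, limma). In tissue RNA, fewer cells of a type and less RNA per cell cannot be told apart. Kap is named for its regulation by androgen, and the labels give no sex. Whether these genes moved with a tubule segment or with a hormone was not tested.

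**Figure D2:**
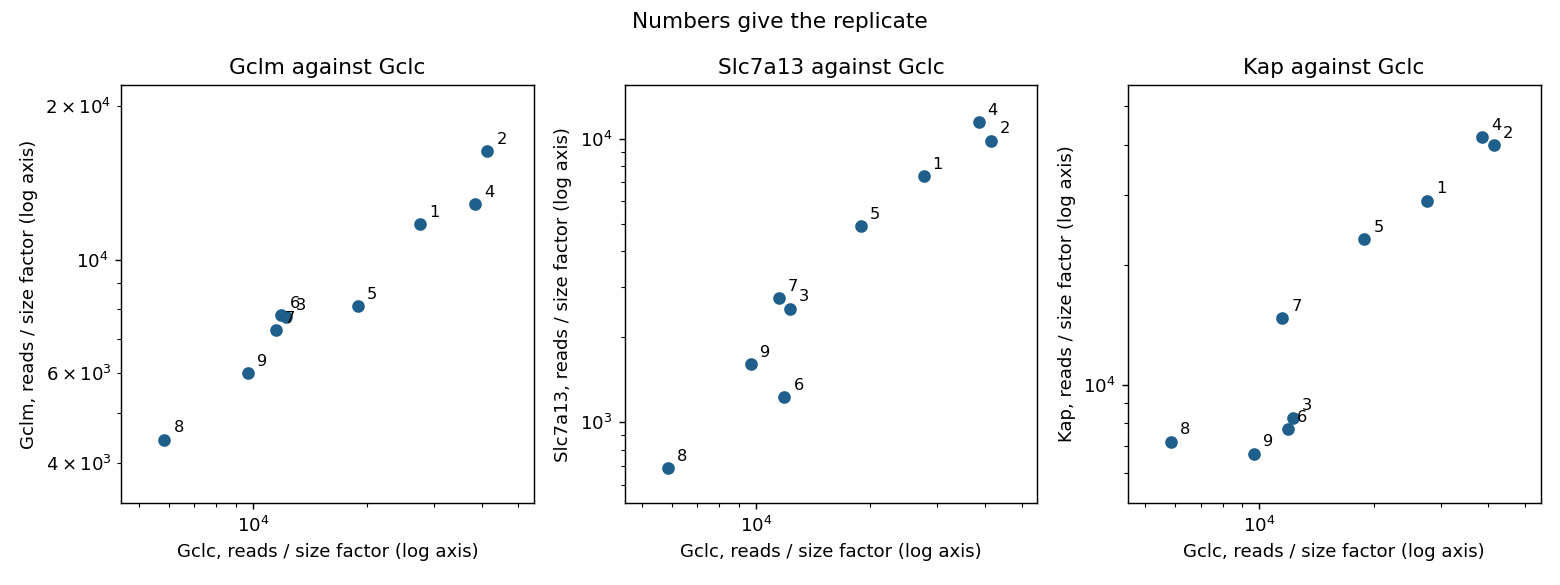
Levels of Gclm, Slc7a13 and Kap against Gclc in the 9 libraries (reads divided by size factor, log axes, numbers give the replicate). Replicates 1, 2 and 4 lie at the upper right in each panel and replicate 8 has the lowest Gclc, with Pearson's r on log2 levels of 0.976, 0.966 and 0.933.

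By p-value, the genes at the head of the Gclc list, named here after their values were seen, included Hnmt, which inactivates histamine (slope 1.40 ± 0.11), Mep1b, the brush-border protease meprin beta (0.88 ± 0.083), and Aadat, an aminotransferase of the kynurenine pathway (0.71 ± 0.074). The first was Slco1a6, an organic anion transporter (1.38 ± 0.096). Its close relative Slco1a1 was also called. Reads with several alignments were counted apart from genes, so reads that fit both genes would be missing from both levels. Mme (neprilysin), a peptidase of the proximal tubule brush border, followed Gclc at an r of 0.948. Gclm had 43 followers (0.315%), of which 40 were also on the Gclc list, which is 66.7% of that list and 93.0% of the Gclm list. The 2 fits share all 9 libraries. The Gclm count was 8 without replicate 2, 10 without replicate 4, 20 without replicate 8, 24 without replicate 1 and 0 in replicates 4 to 9 alone.

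Nqo1 did not lead the other targets. None of the 5 others tested passed when slopes were taken on the level of Nqo1, and none of 13646 genes did (0%) by limma, although 4511 (33.1%) had an unadjusted p under 0.05. By edgeR on the recovered reads 0 genes passed and by DESeq2 2473 of 13646, Osgin1 among them (slope 0.40, adjusted p = 0.0420). The limma slope of Osgin1 was 0.41 ± 0.15 (adjusted p = 0.0930). Txnrd1 had a slope of -0.14 ± 0.062 (adjusted p = 0.130) and Gsr -0.09 ± 0.068 (adjusted p = 0.370), while Gclc at 0.36 ± 0.27 and Gclm at 0.18 ± 0.17 had errors close to their slopes. Without replicate 3, 498 genes followed Nqo1 and without replicate 5, 2 genes, in neither case an NRF2 target. With the score of the proximal tubule S1 and S2 markers as a covariate 3747 genes passed, again with none of the targets. In replicates 4 to 9 alone 1868 of 13646 did, with Osgin1 the 1 target among them. Calls as wide as these do not set Osgin1 apart.

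Between the 6 tested targets, 7 of the 15 pairs had a positive and 8 a negative r, with a median of -0.35. Over all 93113481 pairs of tested genes the median r was -0.0034 and 49.8% were positive. The lowest value was that of Nqo1 with Txnrd1, at -0.823 (exact permutation p = 0.0141) with a rho of -0.683 (exact permutation p = 0.0503). Without replicates 1 and 9, r was -0.305. In replicates 4 to 9 alone, with Txnrd1 as the reference, Nqo1 passed (slope -0.30, adjusted p = 0.0424 by limma). It was among 5092 genes called out of 13646, so the call does not set Nqo1 apart. Txnrd1 and Gsr had an r of 0.777 (exact permutation p = 0.0490) and a rho of 0.517 (exact permutation p = 0.162), with an r of 0.116 when replicates 1 and 9, the extremes of Txnrd1, are left out. Over all 9 libraries both pairs missed the threshold once adjusted over all genes, at 0.130 for the slope of Txnrd1 on Nqo1 and 0.391 for the slope of Gsr on Txnrd1 (limma). No replicate was high for the whole set: replicate 2 was the highest for 2 of the 6 targets, and replicates 1, 5, 7 and 9 for 1 each, while replicates 1 and 8 were the lowest for 2 each.

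**Figure D3:**
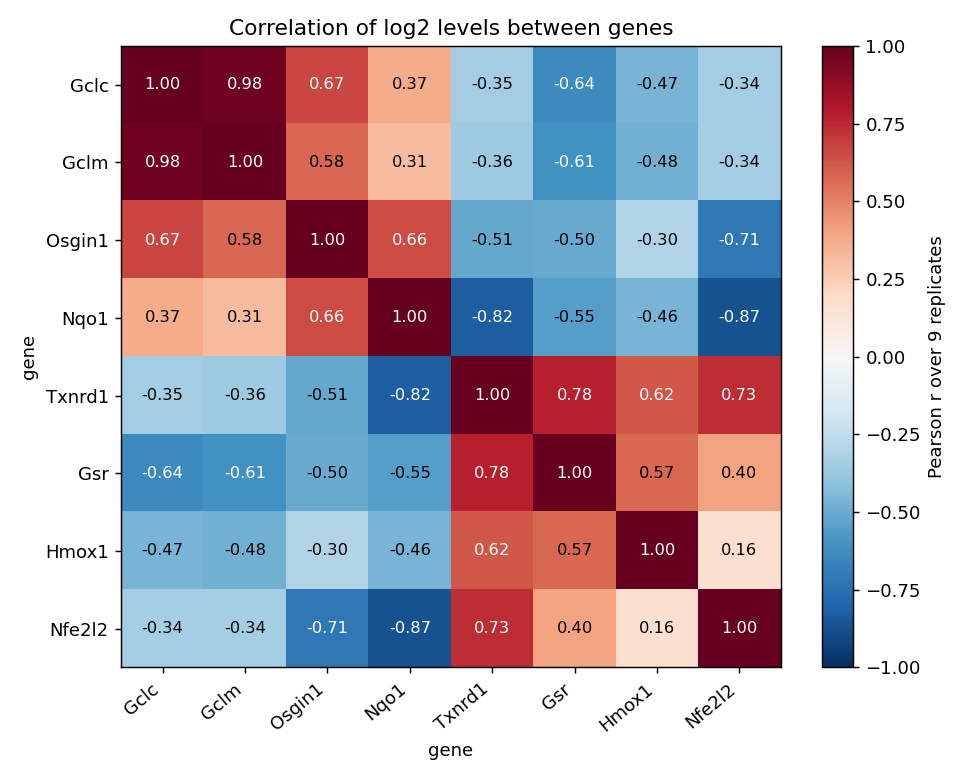
Pearson's r of log2 levels over the 9 replicates between the 6 tested NRF2 targets, Hmox1 and Nfe2l2 (colour scale from -1 to 1, value in each cell). Gclc and Gclm stand at 0.98, and Nqo1 and Txnrd1 at -0.82.

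Osgin1 had followers of its own. With Osgin1 as the reference, 17 of 13646 genes passed (0.125%), none of the NRF2 targets among them. Gss, glutathione synthetase, which completes the tripeptide that glutamate-cysteine ligase begins, was one, with a slope of 0.51 ± 0.081 (adjusted p = 0.0359, limma). Gss averaged 5007 ± 1836 and was highest, as Osgin1 was, in replicate 5, at 7072. The count was unstable, at 1 gene without replicate 1 or without replicate 9, 5 without replicate 6, 9 without replicate 4 or 7, 0 in replicates 4 to 9 alone, and 2159 without replicate 2. With Txnrd1 or Gsr as the reference, 0 genes passed by limma, with 1834 (13.4%) and 794 (5.82%) at an unadjusted p under 0.05. Without replicate 5, 2 genes passed for Gsr. For Txnrd1, 5092 passed in replicates 4 to 9 alone and 2254 with all libraries scaled to the same total.

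Hmox1, the haem-degrading enzyme, spread far more than the NRF2 targets, from 83.3 in replicate 1 through a median of 199.1 to 3308 in replicate 9. None of the 6 tested targets followed it, and 0 of 13646 genes did (0%) by limma and by edgeR, with 383 (2.81%) at an unadjusted p under 0.05. DESeq2 called 1 gene. Slopes on Hmox1 were -0.45 ± 0.26 for Gclc, -0.28 ± 0.16 for Gclm, -0.19 ± 0.19 for Osgin1, -0.16 ± 0.12 for Nqo1, 0.11 ± 0.072 for Txnrd1 and 0.09 ± 0.072 for Gsr (each adjusted p = 1.00). Of the 3 libraries with the most Hmox1, replicates 9 and 6 (3308 and 2877) had the lowest Nqo1, at 96.3 and 138.8, whereas replicate 5 (1676) had the second-highest, at 200.6. The r of Nqo1 with Hmox1 was -0.463 (exact permutation p = 0.220, rho -0.600 with exact permutation p = 0.0968) and 0.258 with replicates 1 and 9 left out.

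Nfe2l2 itself was steady, at 5179.6 ± 539.8 with a 1.38-fold range from 4441 in replicate 1 to 6140.0 in replicate 9. Its r was -0.867 with Nqo1 (exact permutation p = 0.00358, rho -0.600 with exact permutation p = 0.0968, and r -0.605 with replicates 1 and 9 left out). With Osgin1 it was -0.712 (exact permutation p = 0.0326, rho -0.683 with exact permutation p = 0.0503, r -0.612 when the 2 libraries with the most extreme Osgin1 are left out). With Txnrd1 it was 0.735 (exact permutation p = 0.0199, rho 0.733 with exact permutation p = 0.0311, r 0.248 with replicates 1 and 9 left out). With Nfe2l2 as the reference, a comparison added after the values were seen, no target passed by limma (adjusted p = 0.111 for Nqo1), nor did any of 13646 genes (0%). An unadjusted p under 0.05 was reached by 3650 genes (26.7%), and 1059 passed without replicate 8. These are transcript levels, whereas NRF2 is controlled mainly through its protein.

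The rest of the pathway was read from lists of genes chosen by name. Over all genes 0% followed Nqo1, 0.44% Gclc and 0% Hmox1, so a count of 0 in lists of this size is near the background and sets none of them apart. Of the 15 regulators listed, 14 were tested, and 0 of them followed Nqo1, Gclc or Hmox1. Keap1, the inhibitor that marks NRF2 for degradation, averaged 1222 ± 230 and Sqstm1, the autophagy receptor that competes for KEAP1, 14120 ± 2449. Bach1, a repressor at the same response elements, had the highest ratio of variance to trend among the regulators, with 64.4 in replicate 5 and 332.9 in replicate 6. The enzymes that supply NADPH had 5 of 8 tested, and 0 followed those 3 genes. Idh2 and Idh1, isocitrate dehydrogenases of mitochondria and cytosol, averaged 20219 ± 2576 and 17650 ± 4429, and Idh1 was lowest in replicate 1 (11227), as Txnrd1 and Gsr were. Among 16 other glutathione genes, 14 were tested and 0 followed Nqo1, Gclc or Hmox1. Their most abundant members were the glutathione peroxidases Gpx1 at 50155 ± 20139 and Gpx4 at 14590.0 ± 3677.

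Thioredoxin and peroxiredoxin genes had 11 of 13 tested, and 0 followed Nqo1, Gclc or Hmox1. Txnip, which binds and inhibits thioredoxin, averaged 11231 ± 3808 and peaked in replicate 1 at 20139, where Txnrd1 was lowest. Prdx1, a cytosolic peroxiredoxin, averaged 10093 ± 1619, and Txn2, mitochondrial thioredoxin, ran between 2494 and 5534 and had the highest ratio of variance to trend in its list, 2.58 against 2.46 for Txnip, whose range was wider at 2.55-fold against 2.22-fold. Of 25 other known NRF2 targets, 21 were tested and 0 followed Nqo1 or Gclc. The ferritin chains Fth1 and Ftl1 averaged 100784 ± 22197 and 32290.1 ± 14701, both highest in replicate 5, as was Osgin1. ATF4, the stress factor that shares Slc7a11 as a target, averaged 4251 ± 510 at the transcript level, with Shmt2, a mitochondrial serine enzyme, at 5559 ± 1852. Atf3 ranged from 148.7 to 1368, and 0 of the 12 tested genes of that list followed Nqo1, Gclc or Hmox1.

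The genes most like Nqo1 over the 9 replicates, by Pearson's r on log2 levels, were Tnk2, a non-receptor tyrosine kinase, at 0.970, AABR07054639.1 at 0.968 and Cidea, a lipid droplet protein, at 0.966. The most opposite were Mtmr4, a lipid phosphatase, at -0.953, ENSRNOG00000008440 at -0.950 and Snx9, a sorting nexin, at -0.950. The genes most like the mean z-score of the 6 tested targets were Rwdd2a, Wdr86 and Etnk2, at 0.903, 0.902 and 0.891. That mean averages genes that run against each other. All genes named here were picked as extremes over the tested genes, and their r values were not tested. Rwdd2a and Wdr86 had as few as 8 reads in a library, with counting errors of 21.0% and 22.7%. Cidea had as few as 7, with a counting error of 22.0%.

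Because segments of the nephron may differ in these enzymes, each target was set beside 9 marker lists, a comparison made after the values were seen. Of 54 correlations, 0 passed after adjustment and 10 had an unadjusted exact permutation p under 0.05. The S3 list holds Slc7a13 and Kap, called above as followers of Gclc and Gclm in the same libraries. Its r with these ligase genes is therefore no separate support. Gclc had an r of 0.858 with the S3 list (exact permutation p = 0.00309, adjusted 0.0835), a rho of 0.783 (exact permutation p = 0.0172, adjusted 0.260) and an r of 0.650 once the 2 libraries with Gclc farthest from its median are left out. Osgin1 had an r of 0.851 with the thick ascending limb list (exact permutation p = 0.00309, adjusted 0.0835), a rho of 0.883 (exact permutation p = 0.00308, adjusted 0.166) and an r of 0.847 without its 2 farthest replicates. Nqo1 ran with the thick ascending limb at 0.824 (exact permutation p = 0.00675, adjusted 0.119) and with collecting duct principal cells at 0.734 (exact permutation p = 0.0366, adjusted 0.220). Without replicates 1 and 9 these were 0.457 and 0.353. The thick ascending limb list had only 4 tested markers of 6 named. With Nqo1 or Osgin1 as the reference, 3 of the 4 had positive slopes and 0 passed. Slc12a1, 1 of the 4, was at 10484 in replicate 5, where Osgin1 was highest, against its median of 15562. Txnrd1 ran against intercalated cells at -0.892 (exact permutation p = 0.0110, adjusted 0.119) and Gsr with the S1 and S2 list at 0.883 (exact permutation p = 0.0155, adjusted 0.119), and without their 2 farthest replicates these were -0.363 and 0.441.

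Replicate 1 had the highest summed levels of the principal, intercalated, thick ascending limb and distal lists and the lowest of the S1 and S2 list. Each of the 4 principal and 5 intercalated markers peaked there, but the other 2 sums were mostly 1 gene, Umod (84097 of 106765) and Calb1 (34031 of 37192), while Slc12a1 and Cldn10 peaked in replicates 2 and 5, and Slc8a1 and Trpm6 in replicate 9. The 4 principal cell markers in the table (of 6) summed to 25809 there, against a median of 13461 and a lowest of 10191, and the 5 intercalated markers (of 6) to 22638, against 13517 and 11945. The 11 S1 and S2 markers (of 12) summed to 177373 in replicate 1, a median of 285510.0 and a highest of 362922 in replicate 8. The 8 S3 markers, of 8, ran from 39598 in replicate 9 through 56845 to 112694 in replicate 2, and no marker was at 0 in any library. The part of these shifts in the levels of the NRF2 targets was not tested. With the S1 and S2 list as a covariate, Gclm followed Gclc with a slope of 0.56 and an adjusted p of 0.0278, and 28 genes followed Gclc.

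**Figure D4:**
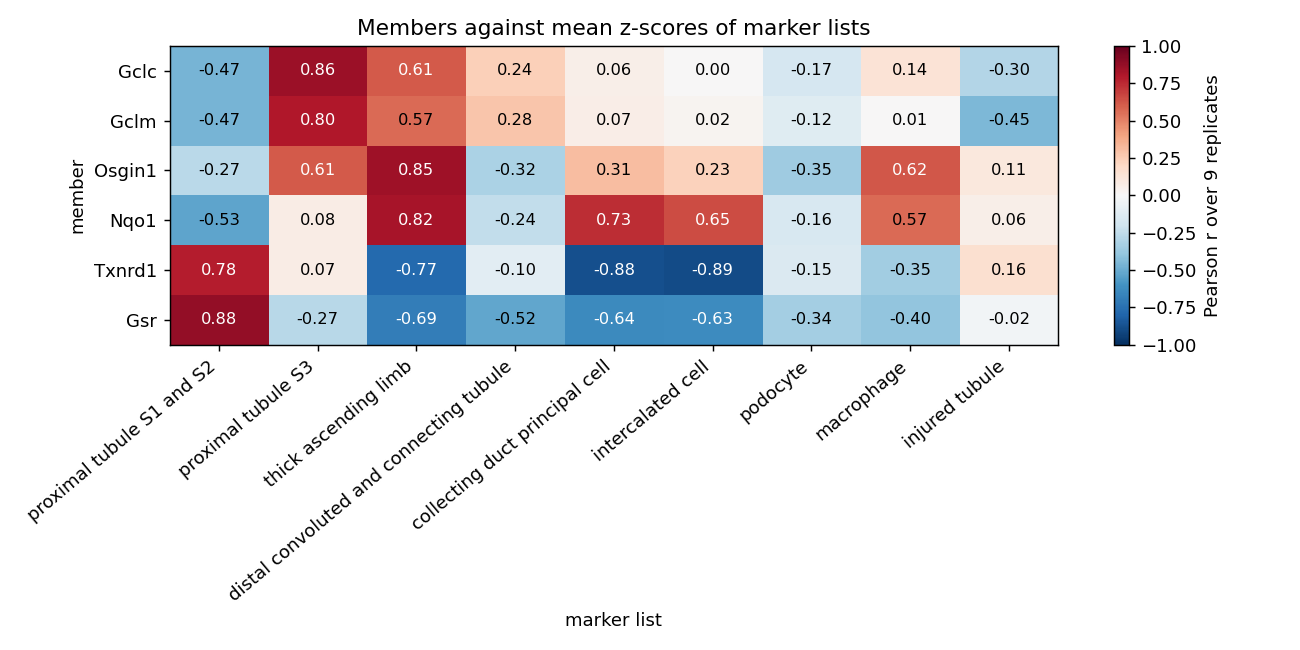
Pearson's r over the 9 replicates between the log2 level of each tested NRF2 target (rows) and the mean z-score of each marker list (columns), value in each cell. Gclc and Gclm stand at 0.86 and 0.80 with proximal tubule S3, and Txnrd1 at -0.89 with intercalated cells. The S3 list includes Slc7a13 and Kap, which followed Gclc and Gclm in the same libraries.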

How the data were processed

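Kidney cortex was flash frozen, RNA was isolated with a commercial kit and stranded mRNA libraries were made, per the labels' protocols. Tools listed in the submitters' processing notes are HTSeq 0.6.1p1, DESeq2, FastQC 0.11.2 and MultiQC 0.9, with build Rnor_5.0, and an aligner is not given in the sources used here. What the authors deposited is a signal, the reads of each gene over a size factor of the library, per the labels. Whole reads were recovered, with 99.988% to 99.994% of values above 0 within 0.1 read of a whole number. The 3 rows that name no gene (reads outside genes, 28.9% ± 2.93 of counted reads; with several alignments, 17.2% ± 2.33, both SD, n = 9; and ambiguous reads) were left out of tests. No 2 libraries were copies: read counts differed beyond counting error in all 36 pairs.

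A pseudocount of 1 was added before log2 was taken, and the 13647 genes whose mean value reached 10 were tested, in R 4.3.3. Variance was set over limma's robust trend (limma 3.58.1) in an F test computed outside limma. Slopes on a gene's log2 level or a library measure, in SD units, were fitted with limma over all tested genes. Both had Benjamini-Hochberg adjustment and a threshold of 0.05. The alternatives were edgeR 4.0.16 and DESeq2 1.42.0 on recovered reads, other pseudocounts, filters and scalings, covariates, and left-out replicates. Single correlations had exact permutation tests over all pairings. Genes named were the NRF2 targets, Hmox1 and Nfe2l2, the 2 most abundant and the most variable member of each pathway list with any that passed a slope test, the 3 most alike and most opposite to Nqo1, and the 3 most alike to the mean z-score. Keap1, single markers and the genes at the head of the Gclc list were named outside this rule, after their values were seen. The members and lists were chosen with earlier results of these data known. Relations to Gclc under other settings, to Nfe2l2 and to marker lists were added after the values were seen.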

Additional observations from a re-analysis of the deposited data

Results flagged for a closer look

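In 4 of 35 genes screened, 1 library stood far from the other 8, by its gap to the nearest library over the whole range. Chance flags about 1 in 20 groups of independent, normally distributed values. The 35 genes share the same libraries and some were named for their spread, so 4 of 35 cannot be set against that rate. Txnrd1 was lowest in replicate 1 at 4921, with the next library at 6341 and a gap of 0.520 of the range. Gsr was lowest in the same replicate at 6645, with the next at 8126 and a gap of 0.497 of the range. Txnip was highest there at 20139, with the next at 13789 and a gap of 0.519 of the range. Ftl1 was highest in replicate 5 at 66971, with the next at 43875 and a gap of 0.5005 of the range.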

How the results depend on the processing

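No paired analysis was possible because all 9 libraries belong to 1 group. The variance test called 0 genes under every alternative run. Its lowest adjusted p in the main setting was 0.957, so it had little power to call any gene. With the S1 and S2 score as a covariate, 3747 genes followed Nqo1 and 28 followed Gclc, against 0 and 60. With the multi-aligned share as a covariate, 108 followed Gclc. DESeq2 called 2473 genes for Nqo1, 125 for Gclc and 1 for Hmox1, of 13646 tested for each. Replicates 4 to 9 alone gave 1868 for Nqo1, 4 for Gclc and 3135 for the multi-aligned share (4774 over all 9), 0 for Gclm and Osgin1, with Osgin1 passing on Nqo1 (slope 0.45, adjusted p = 0.0455 by limma), and a Gclm slope on Gclc of 0.49 (adjusted p = 0.322). Leaving out each replicate in turn gave 0 to 498 genes for Nqo1, 19 to 61 for Gclc, 0 for Hmox1, 1740 to 4978 for the multi-aligned share, 8 to 52 for Gclm (8 without replicate 2, 10 without 4, 20 without 8, 24 without 1) and a Gclm slope on Gclc of 0.47 to 0.61, the slope missing the threshold only without replicate 2 (0.48, adjusted p = 0.0520). Scaling all libraries to the same total shifted libraries by -0.14 (replicate 5) to 0.16 (replicate 1) on the log2 scale. That scaling gave 2254 genes for Txnrd1 and 4116 for Nfe2l2, against 0 each. Replicates 4 to 9 gave 5092 of 13646 genes for Txnrd1, Nqo1 among them (slope -0.30, adjusted p = 0.0424 by limma). No slope of an NRF2 target on Nqo1 or Hmox1 changed sign under these alternatives. On Gclc, that of Txnrd1 (-0.06) turned to 0.0035 with the S1 and S2 covariate and 0.0052 in replicates 4 to 9, neither past the threshold. With replicates 1 and 9 both left out, r of Nqo1 changed sign with Hmox1 (-0.463 to 0.258) and Gclm (0.315 to -0.147). The causes were not tested. Depth limits Slc7a11 and, with 73 to 291 reads, Nqo1.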
